A study of Mus musculus with 12 samples.

Results

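PLX3397 was compared with vehicle in the striatum of R6/2 mice, 3 libraries against 3. These are 6 of the 12 libraries of the study, chosen by their labels alone (genotype R6/2, and treatment PLX3397 or vehicle), and all 15397 genes of the deposited table entered the comparison. Treated R6/2 mice were fed chow with 275 ppm PLX3397 from week 7 to week 11 of age, and R6/2 controls were given vehicle over the same weeks. The other 6 libraries are wild-type mice, 3 on vehicle and 3 on PLX3397 at that dose and over those weeks, and they serve here as a reference. All mice are labelled C57BL/6, the tissue is microdissected striatum, and the series design gives 3 mice to each group. Libraries are numbered 1 to 3 within a group, as in the labels.

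R6/2 is a mouse model of Huntington's disease that carries the first exon of human huntingtin with a long CAG repeat, driven by the human promoter. It therefore makes a fragment of the protein in many tissues beside the mouse's own huntingtin, and its decline is fast, which sets it apart from models with a full-length gene. PLX3397 blocks the kinase CSF1R, the receptor for the cytokines Csf1 and Il34. Microglia, the resident macrophages of the brain, need that signal to survive, while most macrophages at the borders of the brain and some blood cells also carry the receptor, and the drug acts on the related kinase Kit as well. The striatum is made up mostly of medium spiny neurons, which release GABA and fall into a Drd1 and a Drd2 class. The study asked whether the loss of microglia alters the course of the disease, including the extracellular matrix around neurons.

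The values are log2 CPM (read counts scaled to a common library size, with a small prior count), so that a value of -3.46 stands for 0 reads. The 6 R6/2 libraries held between 18902120 and 24293208 gene-assigned reads, recovered from the deposited values. Striatal neuron genes were present in all 6: Ppp1r1b, a phosphatase inhibitor of medium spiny neurons, lay between 6.14 and 8.42 log2 CPM. A marker of cortical tissue split the treated group. Slc17a7, the vesicular glutamate transporter of cortical neurons, stood at 8.73, 9.86 and 9.50 in the vehicle libraries and at 2.79, 3.06 and 9.0 in the PLX3397 libraries. PLX3397 libraries 1 and 2 thus lay far below the other 4, and the mean over 22 cortical neuron genes did the same, at 5.21, 6.31 and 5.92 on vehicle against 3.48, 3.50 and 5.79. Choroid plexus RNA stood out in vehicle library 1, where Ttr, the plexus's transport protein, reached 12.10 against 4.01 to 5.81 in the other 5. Several results below are given with and without these libraries. Single falls are not marked in every case, so an unmarked call may end without them. In whole tissue, fewer cells of a type and less RNA per cell cannot be told apart.

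Homeostatic microglial genes were far lower in R6/2 striatum on PLX3397 than on vehicle, and few genes rose. A gene was called where the adjusted p of limma was under 0.05 (Benjamini-Hochberg, over all 15397 genes). By that rule 160 genes fell, 1.04% of those tested, and 9 rose, 0.0585%. The median change over all genes was -0.01 on the log2 scale, and 2023 genes had an unadjusted p under 0.05. The falls were deep: 156 were at least 2-fold, 123 at least 4-fold, 90 at least 8-fold, 46 at least 16-fold and 22 at least 32-fold, on the log2 CPM scale, which understates the change of genes with few reads. In all 160 genes the 3 treated libraries lay below the 3 vehicle libraries, and in all 9 rises they lay above them. Over all genes tested, 1836 (11.9%) had every treated library below every vehicle library and 1882 (12.2%) had every one above. The treated libraries were at or under 3 reads each for 33 of the falls. Of the 160, 129 stayed called without treated library 1, 123 without treated library 2 and 119 without vehicle library 1. With the mean of the cortical neuron genes as a covariate 109 did. Every one of the 160 stayed negative in each alternative analysis that could test it, and 51 were called in every one. The rises passed in fewer, as given with them below.

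Homeostatic microglial genes made up the clearest block, with 29 of 36 measured genes called lower and none higher. Their median change was -4.99, against -0.01 over all genes. Averaged over the 36 genes, the vehicle libraries stood at 4.20, 3.90 and 4.45 log2 CPM and the treated ones at -0.50, -0.17 and 0.52. The groups did not overlap, and library 3 was the highest of the treated. Measured in CPM, the 29 genes kept a median of 1.65% of their vehicle level, with a range from 0.407% to 23.9%, while the median over all 160 falls was 7.78%. Among the 29, treated library 3 was the highest of the 3 for 21 genes and library 1 the lowest for 17. Without treated libraries 1 and 2, in a fit that leaves 1 treated library, 17 of the 36 passed and the median was -4.12.

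The target of the drug was among the deepest falls. Csf1r, the receptor itself, stood at 6.75, 6.62 and 7.16 log2 CPM on vehicle and at -0.79, -0.24 and 1.39 on PLX3397. It fell by 6.72 ± 0.68 (SE) on the log2 scale with an adjusted p of 0.000398 (limma), and 1.07% of its CPM level was left. Cx3cr1, the receptor through which microglia sense the neuronal chemokine fractalkine, went from 5.54, 5.67 and 5.90 to -1.58, -2.20 and 0.27, the largest fall of the comparison at 6.88 ± 0.60 (adjusted p = 0.000165, limma). All 3 treated libraries were far below the vehicle libraries for both genes, and library 3 kept the most. Siglech, a sialic acid-binding lectin of microglia, fell by 6.74 ± 0.64, from 4.11, 3.40 and 4.56 to -3.46, -2.20 and -2.50, where library 1 held no read at all. Tmem119, a membrane protein used as a microglial marker, was the tightest of them. It went from 4.61, 4.39 and 4.76 to -1.77, -1.54 and -1.07, a fall of 6.05 ± 0.26 (adjusted p = 1.43e-06, limma).

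Other microglial receptors and their partners followed. Trem2, a lipid-sensing receptor, fell by 6.11 ± 0.61 from 3.75, 3.15 and 3.52 to -2.93, -3.46 and -1.52, and its adaptor Tyrobp fell by 5.73 ± 0.69. P2ry12, the ADP receptor that guides microglial processes to injury, went from 4.70, 4.79 and 5.18 to -0.36, -0.47 and 1.01, a fall of 4.83 ± 0.39. Its relative P2ry13 fell by 6.01 ± 0.52. Gpr34, a G protein-coupled receptor of microglia, Fcer1g, the shared chain of Fc receptors, and Selplg, a selectin ligand, fell by 5.50, 5.23 and 4.68. Laptm5, a lysosomal membrane protein of blood-derived cells, fell by 5.96, and Pld4, a nuclease of the endolysosome, by 5.90.

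The other 7 genes of the list did not pass, and they are named here after their values were seen. Sparc, a matrix protein that astrocytes and endothelium also make, changed by 0.67, and Mertk, a phagocytic receptor shared with astrocytes, by -0.39. Lgmn, a lysosomal protease, changed by -0.48 and Sall1, a transcription factor of microglia, by -0.37. Aif1, which encodes the microglial stain IBA1, changed by -1.11 with an adjusted p of 0.323 (limma). Hpgds, a prostaglandin synthase, changed by -1.63, and Ikzf1, a transcription factor of blood lineages, by -2.55 with an adjusted p of 0.105 (limma).

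**Figure D1:**
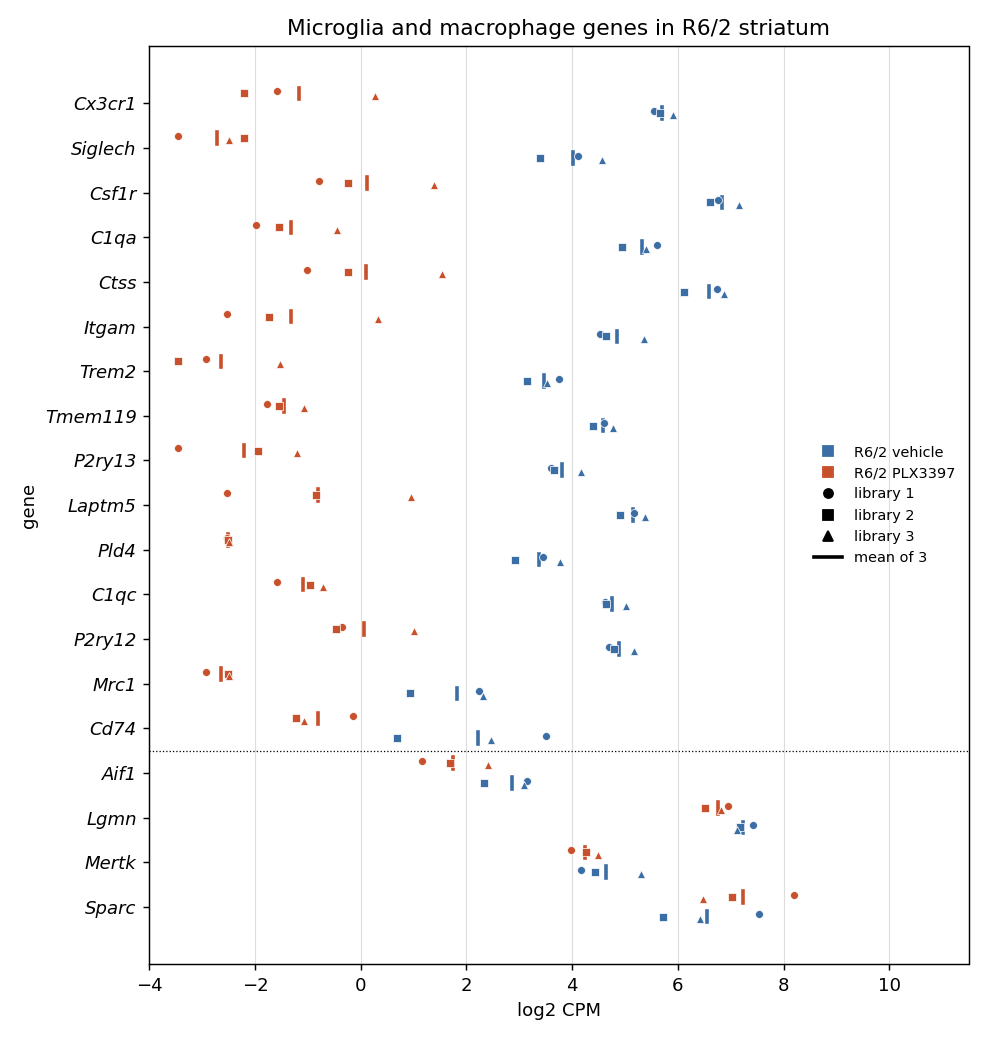
Log2 CPM (x axis) of 19 microglial and macrophage genes in the 3 R6/2 vehicle libraries (blue) and the 3 R6/2 PLX3397 libraries (orange). Marker shape gives the library number and the short bar the mean of 3. Genes above the dotted line were called lower, and those below it (Aif1, Lgmn, Mertk, Sparc) were not called. Csf1r goes from between 6.62 and 7.16 to between -0.79 and 1.39, and treated library 3 is drawn as a triangle.

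Because these genes fell together, their promoters were searched for GAGGAAGT, a form of the site bound by PU.1, the ETS factor of macrophages encoded by Spi1. The windows run from 250 bases before to 50 bases after each RefSeq start (GRCm38.p6). On either strand, GAGGAAGT lay in the promoter of 16 of the 118 called-lower genes with a window (13.6%), of 4 of 19 homeostatic genes called lower (21.1%), of none of 6 called higher, and of 3.22% of all 11814 genes with a window. The spelling was 1 of 5 tried, each nested in or around the same core. GAGGAAG gave 39.0% against 15.6% for all genes, GGAAGT 46.6% against 30.0%, GAGGAA 55.9% against 30.0%, and AGAGGAAGT 5.93% against 1.05%. A match is a description of the letters and not a bound site. The 4 called-lower genes with the largest falls among those with a match are shown 5′ to 3′ in the direction of the gene, with the match in capitals (ACTTCCTC is the same site on the opposite strand).
Ctss promoter (chr3:95526536-95526835, + strand): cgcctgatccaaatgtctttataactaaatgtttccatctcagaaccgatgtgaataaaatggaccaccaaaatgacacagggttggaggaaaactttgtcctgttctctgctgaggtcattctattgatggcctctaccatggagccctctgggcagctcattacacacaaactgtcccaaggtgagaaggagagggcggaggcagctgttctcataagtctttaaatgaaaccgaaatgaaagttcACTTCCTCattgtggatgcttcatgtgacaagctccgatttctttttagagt
Pld4 promoter (chr12:112760405-112760704, + strand): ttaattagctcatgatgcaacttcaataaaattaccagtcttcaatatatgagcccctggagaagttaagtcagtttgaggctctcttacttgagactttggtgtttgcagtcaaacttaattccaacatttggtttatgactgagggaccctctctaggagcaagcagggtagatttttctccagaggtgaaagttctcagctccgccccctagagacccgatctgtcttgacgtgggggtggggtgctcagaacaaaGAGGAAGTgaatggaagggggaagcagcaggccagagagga
C1qc promoter (chr4:136892865-136893164, - strand): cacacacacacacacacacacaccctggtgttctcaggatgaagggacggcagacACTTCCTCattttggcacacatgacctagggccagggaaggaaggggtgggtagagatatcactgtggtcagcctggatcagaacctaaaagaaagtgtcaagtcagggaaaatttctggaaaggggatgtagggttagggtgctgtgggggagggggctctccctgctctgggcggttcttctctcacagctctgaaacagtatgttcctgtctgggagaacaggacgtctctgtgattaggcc
Vav1 promoter (chr17:57278850-57279149, + strand): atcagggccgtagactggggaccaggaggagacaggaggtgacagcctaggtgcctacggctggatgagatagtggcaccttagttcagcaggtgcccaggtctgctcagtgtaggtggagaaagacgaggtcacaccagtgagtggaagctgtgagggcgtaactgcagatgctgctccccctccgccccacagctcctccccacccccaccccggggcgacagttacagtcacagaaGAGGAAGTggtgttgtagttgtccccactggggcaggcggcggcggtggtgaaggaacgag
The first base of the match lay 2 bases before the start of Ctss, a lysosomal cathepsin, and 11 bases before that of Vav1, a signalling protein of blood cells. In C1qc, a chain of complement C1q, it lay 195 bases before the start. In Pld4 it fell within the transcript, at base 10.

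Ctss went from 6.74, 6.13 and 6.88 log2 CPM to -1.01, -0.24 and 1.55, a fall of 6.48 ± 0.55 on the log2 scale. Vav1 went from 2.22, 2.05 and 2.73 to -3.46, -2.51 and -2.50, a fall of 5.16 ± 0.36, and it rested on 4 reads in the 3 treated libraries against 328 on vehicle. Both adjusted p-values, 0.000162 and 4.39e-05 (limma), were far under the threshold, and no treated library reached a vehicle one. Spi1 itself fell by 4.57 ± 0.54, from 1.85, 1.36 and 2.06 to -3.46, -3.46 and -1.52, with no read in treated libraries 1 and 2.

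Complement, the system of proteins that tag targets for removal, had 5 of 15 genes called lower, beside 1.04% of all genes. The list median was -0.60, against -0.01 over all genes. C1qa, a chain of the C1q initiator that microglia make, went from 5.61, 4.94 and 5.40 to -1.98, -1.54 and -0.45, a fall of 6.64 ± 0.86 (adjusted p = 0.00196, limma). C1qc and C1qb fell by 5.85 and 5.25, and Itgam, a subunit of complement receptor 3, by 6.16. Without treated libraries 1 and 2 the 3 C1q calls ended and 2 of the 15 passed. C3ar1, the receptor for the C3a fragment, fell to 1 read in all 3 treated libraries together, from 108 on vehicle, which is 0.839% of the vehicle level with an exact 95% interval from 0.0210% to 4.77%. Such intervals cover counting error only.

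Markers of other immune cells were fewer in the table. Border macrophages of the meninges and vessels had 4 of 12 listed genes measured, of which 2 fell, beside 1.04% of all genes. Mrc1, a mannose receptor, stood at 2.23, 0.94 and 2.32 on vehicle and at -2.93, -2.51 and -2.50 on PLX3397, a fall of 4.48 ± 0.41. Stab1, a scavenger receptor, fell by 1.98 ± 0.38 (adjusted p = 0.0305, limma), and the call ended in 11 of 24 alternatives. Cd163, another scavenger receptor, changed by 0.25 with groups that overlapped. The leukocyte marker Ptprc, or CD45, which microglia also carry, fell by 2.86 ± 0.44. That call ended in some alternatives, the cortical list mean as a covariate among them. Only 2 of the 16 blood leukocyte genes passed into the table. Their median change was -1.72, or -1.08 without treated libraries 1 and 2. Cd74, the invariant chain of MHC class II, fell by 3.03 ± 0.63 (adjusted p = 0.0472, limma), from 3.51, 0.69 and 2.46 to -0.15, -1.23 and -1.07, and was called in 5 of 24 alternatives. It was the only 1 of 16 antigen presentation genes to pass.

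Genes of activated microglia moved less as a set, with 2 of 16 called lower, beside 1.04% of all genes, and a median of -0.32. In the 6 R6/2 libraries alone, and with the cortical list mean as a covariate, 1 of the 16 was called. Lyz2, a lysozyme, fell by 3.40 ± 0.54, a call that ended without vehicle library 1 or 3 and without treated libraries 1 and 2 together. Ccl6, a chemokine, fell to 1 read in the 3 treated libraries from 114 on vehicle, 0.794% of that level with an exact 95% interval from 0.0199% to 4.52%. Cd68, a lysosomal membrane protein, changed by -1.86 with an adjusted p of 0.079 (limma), from 2.93, 2.17 and 3.24 to -0.22, 1.62 and 1.34. Apoe, which astrocytes make in quantity, changed by -0.20.

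Of the 160 falls, 34 were on a microglial, macrophage or leukocyte list and 120 on none. Sorted by role after their values were seen, 60 of them fell into 11 groups of immune cell function, shown as description. The 6 Fc receptor and partner genes kept a median of 1.98% of the vehicle level, and among them Fcgr3 and Fcgr2b, which bind IgG, fell by 5.07 and 3.74. Syk, the kinase these receptors recruit, fell by 2.07. The 6 Toll-like receptor genes and partners kept a median of 3.14%, with Tlr7 and Tlr13, sensors of RNA, at falls of 4.20 and 4.61. Tlr13 rested on 3 reads over the treated libraries, 1.41% of the vehicle level with an exact 95% interval from 0.288% to 4.18%. The 5 subunits and regulators of the NADPH oxidase kept 9.03%, from Ncf1 with a fall of 3.52 to Cyba with a fall of 1.66. The 4 enzymes of leukotriene and thromboxane synthesis kept 8.0%, and the 6 immune kinases and phosphatases 17.3%. In wild type 54 of these 60 genes were called lower too, beside 135 of all 160 falls (84.4%) and 8.3% of all genes. The other 6 were spread over the transcription factors (2 of 4 called), the NADPH oxidase (4 of 5), the leukotriene enzymes (3 of 4), the kinases and phosphatases (5 of 6) and the cathepsins (2 of 3).

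Within families the falls were partial, beside 1.04% of all genes called lower. Of 11 cathepsins, 3 fell: Ctss, Ctsh and Ctsc. Of 8 interferon regulatory factors, 2 fell, Irf8 and Irf5, and of 6 Toll-like receptors, 2. Of 11 chemokines, 2 fell, Ccl6 and Ccl9, while Cx3cl1, the neuronal partner of Cx3cr1, was not among them. Irf8, which with PU.1 specifies microglia, fell by 3.56 ± 0.48. These families were sorted after the values were seen.

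The ligands of CSF1R and the Tgfb signals that keep microglia in their resting state were tested as 1 list, and 2 of 13 genes fell. Over all genes 1.04% were called lower. Tgfb1, the ligand, fell by 1.98 ± 0.29 (adjusted p = 0.00429, limma). That call ended in several of 24 alternatives, the one without treated libraries 1 and 2 together among them. Tgfbr1, its receptor, stood at 4.90, 4.96 and 5.13 on vehicle and at 4.01, 3.95 and 3.87 on the drug, a fall of 1.06 ± 0.19 (adjusted p = 0.0192, limma) that ended in 7 of 24 alternatives. Csf1 changed by -0.09, from 5.15, 4.50 and 4.88 to 4.80, 4.51 and 4.94. Il34, the ligand made by neurons, changed by -0.52 with an adjusted p of 0.306 (limma). Neither ligand's groups separated.

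A few falls lay in genes that other brain cells make, named here after their values were seen. Cst3, the protease inhibitor cystatin C that astrocytes and microglia make, stood at 10.01, 9.62 and 9.62 on vehicle and 8.82, 8.63 and 8.82 on the drug, a fall of 0.99 ± 0.17 (adjusted p = 0.0157, limma). Dusp6, a phosphatase that switches off ERK, fell by 1.05 ± 0.21 (adjusted p = 0.0347, limma), from 4.98, 5.34 and 5.25 to 3.79, 4.01 and 4.60, and was called in 11 of 24 alternatives. Its list of ERK feedback genes had 1 of 13 called, beside 1.04% of all genes called lower. Grn, the lysosomal growth factor progranulin that neurons and microglia make, changed by -0.73 with an adjusted p of 0.0615 (limma).

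The 9 rises were highest in treated libraries 1 and 2. Library 1 was the highest of the treated for 6 of them, library 2 for 3, and library 3 was the lowest for all 9. Isl1, a transcription factor of striatal direct-pathway and cholinergic neurons, stood at 2.76, 2.81 and 3.42 on vehicle and at 4.36, 4.81 and 3.88 on PLX3397, a rise of 1.35 ± 0.24 (adjusted p = 0.0177, limma). The wild-type vehicle libraries stood at 4.37, 4.19 and 4.21, above R6/2 vehicle. Lhx8, a homeobox gene of forebrain cholinergic neurons, went from 0.34, -0.87 and 1.83 to 4.43, 4.05 and 2.81, a rise of 3.33 ± 0.61. Trh, thyrotropin-releasing hormone, went from 2.15, -0.32 and 0.62 to 5.33, 4.14 and 3.60, a rise of 3.54 ± 0.65.

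The remaining rises behaved alike across libraries. Gbx1, a homeobox gene of ventral forebrain neurons, rose by 3.48, from -2.96, -2.38 and -1.75 to 1.99, 1.91 and -0.53. Pcdh11x, an X-linked protocadherin, rose by 2.64 from 0.75, 1.88 and 1.97 to 4.18, 5.25 and 3.09. Cacna2d2, a calcium channel subunit, rose by 1.19 from 6.14, 5.84 and 6.23 to 7.64, 7.39 and 6.75. Gm14204, AI606473 and Gm16503, which have no settled function, rose by 1.04, 3.63 and 2.96. In each gene library 3 lay closest to the vehicle libraries.

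Each of the 9 calls ended without treated library 1, without treated library 2, without both, with the 6 R6/2 libraries alone, and with the cortical list mean as a covariate. Vehicle libraries mattered as well: 1 of the 9 calls held without vehicle library 1, 1 without vehicle library 2 and 3 without vehicle library 3, and 3 held with a replicate block. Without treated library 3 all 9 held, among 98 rises. The direction stayed positive in every alternative. Treated libraries 1 and 2 are those with the low cortical signal, and the mean of 18 thalamus, septum and pallidum genes was 3.48, 1.92 and 2.41 on vehicle and 4.22, 3.54 and 2.86 on the drug. None of those 18 was called (6 at an unadjusted p under 0.05, limma), and their median change was 1.21, or 0.34 without treated libraries 1 and 2. The part of the tissue makeup in the rises was not tested beyond these values.

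**Figure D2:**
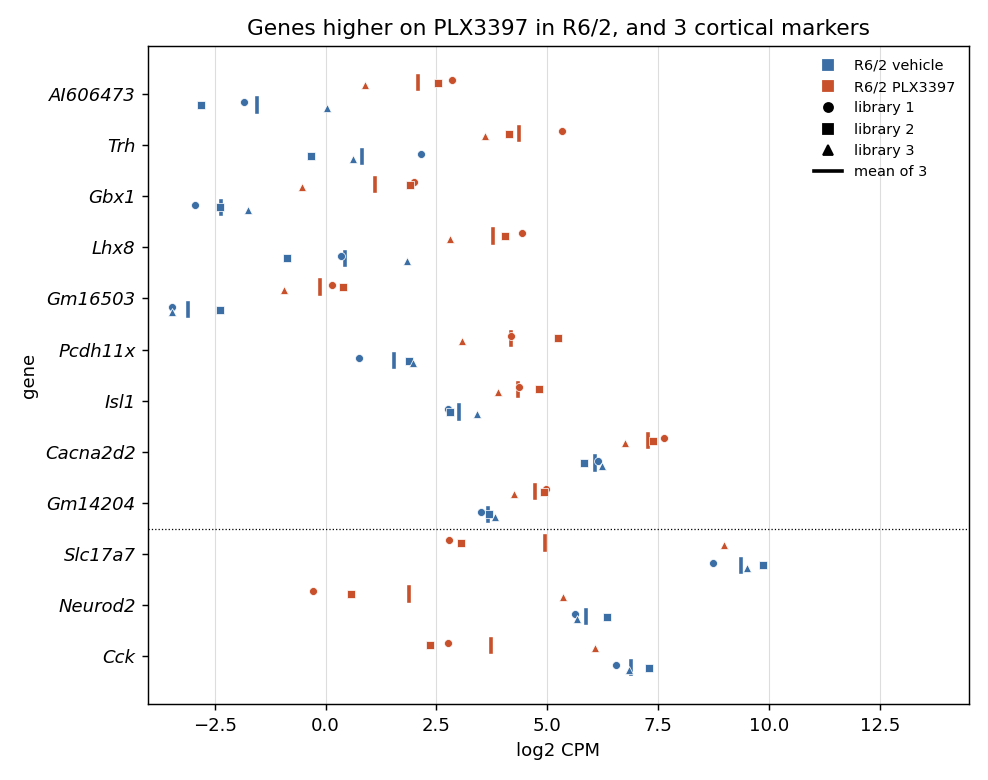
Log2 CPM (x axis) of the 9 genes called higher on PLX3397 in R6/2 (above the dotted line) and of 3 cortical markers (below it), in the vehicle (blue) and PLX3397 (orange) libraries of R6/2. Marker shape gives the library number and the bar the mean of 3. Slc17a7 is 2.79 and 3.06 in treated libraries 1 and 2 and 9.0 in library 3, and library 3 is the lowest treated library for each of the 9 rises.

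Among 20 striatal interneuron genes 2 were called higher (Isl1 and Lhx8, above), beside 0.0585% of all genes. The median change was 0.87, against -0.01 over all genes and 0.31 without treated libraries 1 and 2. Both calls ended without either of vehicle libraries 1 and 2 and without either of treated libraries 1 and 2. Chat, the enzyme with which cholinergic interneurons make acetylcholine, went from 0.29, 1.30 and 2.27 to 3.66, 4.03 and 2.50, a difference of 2.11 with an adjusted p of 0.205 (limma). Slc5a7, the choline transporter, differed by 2.80 (adjusted p = 0.0615, limma) and Slc18a3, the vesicular acetylcholine transporter, by 1.97 (adjusted p = 0.114, limma). The treated libraries lay above the vehicle ones for all 3, with library 3 nearest them. Other interneuron genes went the opposite way: 7 of the 20 differences were negative. Every treated library lay below every vehicle one for 3 genes and above for 7, beside 11.9% and 12.2% of all genes. The 3 lower genes were Cck, a neuropeptide that cortical neurons also make, Vip, a neuropeptide of interneurons, and Kit. They differed by -3.16, -1.55 and -0.37 and are named here after their values were seen. Without treated library 3, 6 of the 20 were called higher and 1, Cck, lower. On vehicle, 7 of the 20 interneuron genes were called lower in R6/2 than in wild type, where 1.49% of all genes were called lower and 0.617% higher.

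The genes that define medium spiny neurons did not pass in either direction. None of 40 shared genes was called by limma (4 at an unadjusted p under 0.05), with a median of 0.16. That median had no stable sign: it was -0.06 without vehicle library 1, -0.15 without treated library 2, -0.04 with the cortical list mean as a covariate and 0.51 without treated library 1. Without treated library 3, 3 of the 40 were called higher, and without wild-type PLX3397 library 1 limma called 1. On vehicle 13 of the 40 were lower in R6/2 than in wild type, beside the 1.49% of all genes, with a median of -1.65. Penk, the opioid precursor of indirect-pathway neurons, stood at 6.66, 6.10 and 7.48 on vehicle, at 6.90, 8.12 and 7.44 on PLX3397, and at 10.07, 10.15 and 9.29 in wild type on vehicle. Its R6/2 difference was 0.75 with an adjusted p of 0.428 (limma). All 3 treated libraries lay below all 3 wild-type vehicle libraries. Drd1 and Drd2, the dopamine receptors, differed by 0.38 and 0.43, Tac1 (substance P precursor) by 0.35, and Ppp1r1b by 0.05. Pdyn, the opioid precursor of direct-pathway neurons, differed by 1.06 ± 0.40 (adjusted p = 0.322, limma). For each of these 6 genes the treated and vehicle libraries overlapped. Gad2, which makes GABA, differed by 1.68 (adjusted p = 0.0627, limma), from 7.01, 7.29 and 7.81 to 9.46, 9.48 and 8.22.

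Of the direct-pathway genes 1 of 10, Isl1, rose (0 without vehicle library 1 or 2, or treated library 1 or 2), and of the indirect-pathway genes 0 of 10 (limma), with 0 at an unadjusted p under 0.05. Immediate early genes, which report recent activity, had 0 of 22 called by limma (6 at an unadjusted p under 0.05), with a median of -0.75. In 7 of the 22 every treated library lay below every vehicle one, beside 11.9% of all genes. Without treated libraries 1 and 2 that median was -0.11, and without treated library 3 it was -0.99 with 2 genes called lower. Fos and Arc differed by -0.69 and -1.21. Npas4 differed by -0.18.

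Perineuronal nets, coats of proteoglycan around some neurons, were the matrix the study asked about, and none of 21 net genes was called by limma (4 at an unadjusted p under 0.05), with a median of -0.05 that turned to 0.04 without vehicle library 1 and to 0.045 without treated libraries 1 and 2. Without treated library 3, or with a replicate block, 1 net gene was called lower. Acan and Bcan, core proteoglycans, differed by -0.05 each and Ncan by -0.27, with overlapping groups. Vcan went from 3.49, 3.74 and 4.18 to 4.39, 4.75 and 3.61, and Tnr, the tenascin that cross-links nets, from 4.57, 5.99 and 6.03 to 6.04, 6.63 and 6.17. Tnr's 3 treated libraries lay just above the vehicle ones, but its difference of 0.75 had an adjusted p of 0.463 (limma). Nptx2, a pentraxin that binds synapses, differed by -1.46 (adjusted p = 0.158, limma).

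**Figure D3:**
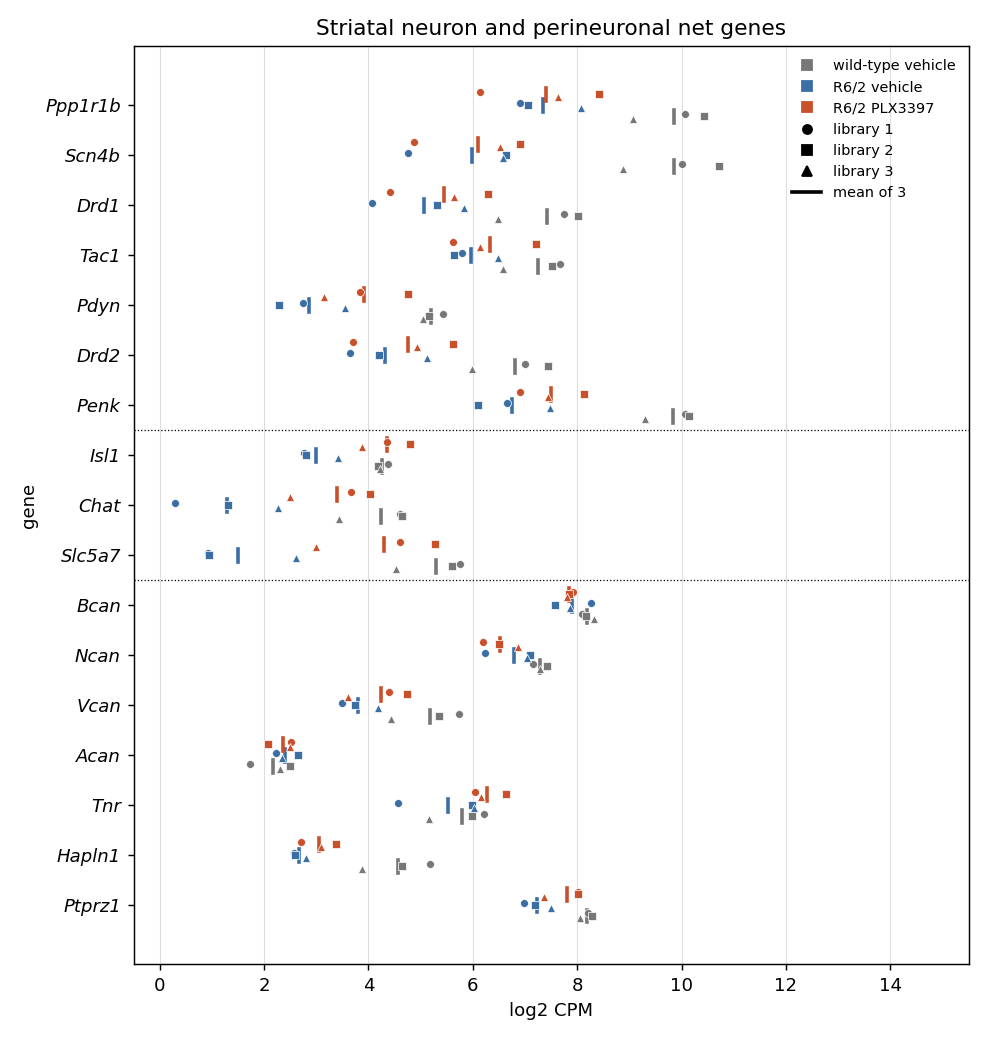
Log2 CPM (x axis) of 17 genes in wild-type vehicle (grey), R6/2 vehicle (blue) and R6/2 PLX3397 (orange) libraries. Dotted lines part medium spiny neuron genes, interneuron genes and net genes. Marker shape gives the library number and the bar the mean of 3. Penk is between 6.10 and 7.48 in R6/2 vehicle, between 6.90 and 8.12 with the drug and between 9.29 and 10.15 in wild type.

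Lists of the glial and vascular cell classes held no call by limma. Over the 31 lists with no call by limma, limma-voom on the recovered reads called 0 genes as well. The 26 astrocyte, 24 myelin, 22 endothelial and 21 oligodendrocyte precursor genes had medians of -0.06, -0.22, -0.24 and -0.22 and 1, 0, 1 and 5 genes at an unadjusted p under 0.05. The myelin median turned to 0.17 and the endothelial one to 0.01 without treated libraries 1 and 2, and without vehicle library 1 the astrocyte median was 0.02 and the precursor one 0.05. The 11 ependymal, 13 choroid plexus, 12 pericyte and smooth muscle and 14 meningeal fibroblast genes stood further down, with medians of -1.02, -0.85, -0.33 and -0.30 and 1, 0, 0 and 1 genes at an unadjusted p under 0.05. All 11 ependymal and 13 of the 14 fibroblast differences were negative. Without vehicle library 1, the library high in choroid plexus RNA, these medians were -0.51, 0.16, -0.18 and 0.26, and without treated libraries 1 and 2 the pericyte one was 0.02. Gpr17, a receptor of differentiating oligodendrocytes, differed by -0.43 and Pdgfra, the growth factor receptor of their precursors, by -0.22. Mbp, myelin basic protein, differed by -0.51 (adjusted p = 0.493, limma), and treated libraries 1 and 2 stood lowest, at 11.33 and 11.20 against 11.75 to 12.41 in the other 4. Gfap, the astrocyte filament protein, differed by -0.53. Interferon-stimulated genes, 11 of 34 of which were higher in R6/2 than in wild type on vehicle (0.617% of all genes), had 0 of 34 called on the drug by limma (3 at an unadjusted p under 0.05) and a median of 0.03 (-0.13 without treated libraries 1 and 2), and Irf7 and Usp18 differed by -0.53 and 0.30. Of 62 cytosolic ribosomal protein genes none was called (6 at an unadjusted p under 0.05, limma). In 24 of them every treated library lay below every vehicle one, beside 11.9% of all genes. Their median was -0.27, or -0.12 without vehicle library 1 and -0.11 with the trend on GC content and length removed. Of 56 protocadherins 51 were higher on the drug by any amount, and only Pcdh11x passed. The protocadherin median was 0.33, against -0.01 over all genes, and 0.09 without vehicle library 1.

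**Figure D4:**
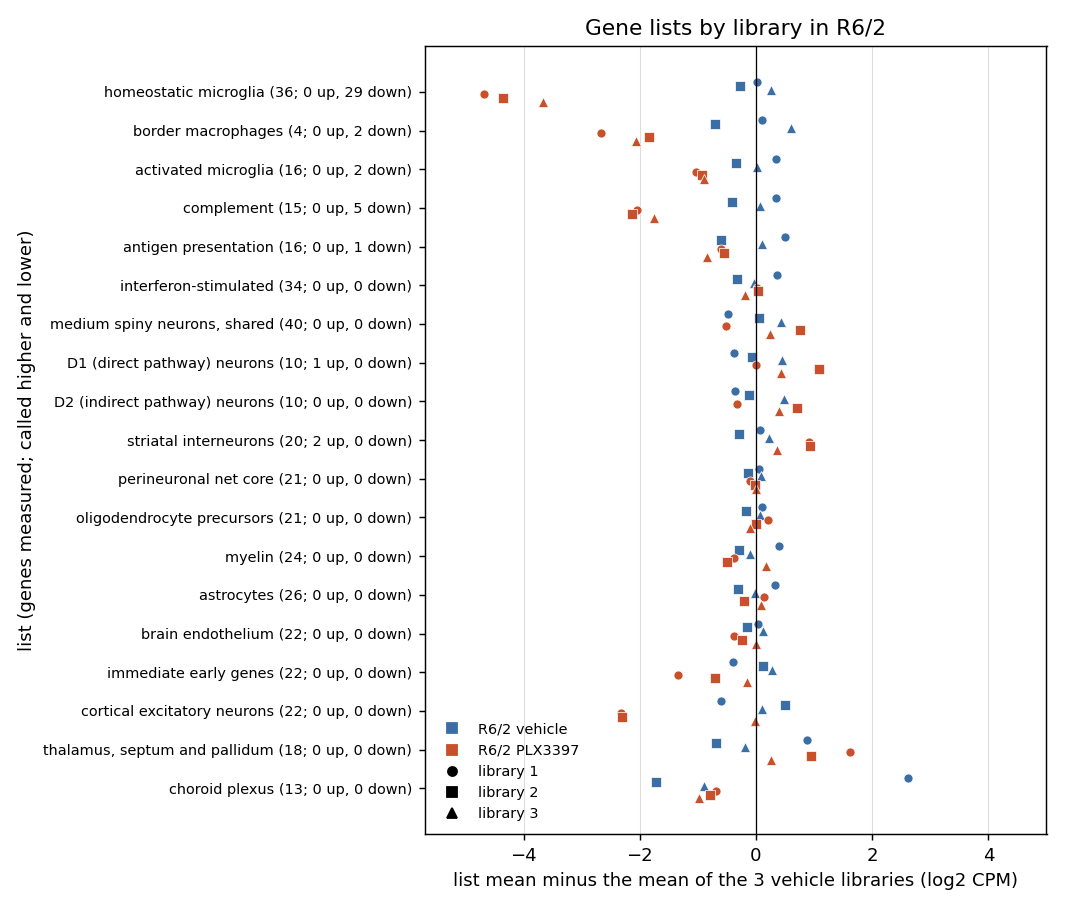
For 19 gene lists (y axis, with the genes measured and those called), the mean log2 CPM of the list in each R6/2 library minus the mean of the 3 vehicle libraries (x axis). Vehicle libraries are blue and PLX3397 libraries orange, and marker shape gives the library number. Homeostatic microglia lie more than 3 units below vehicle in all 3 treated libraries, and cortical neuron genes are low in treated libraries 1 and 2 alone.

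The drug in wild-type striatum, measured in 6 other libraries, gave 1278 falls (8.3% of genes) and 913 rises (5.93%). Of the 160 R6/2 falls, 135 (84.4%) were also called lower there, which is 10.6% of the wild-type falls, 153 were negative, and none was called higher. The median change of the 160 genes was -3.20 in R6/2 and -2.81 in wild type. For Cx3cr1 and Csf1r the wild-type changes were -6.00 and -5.95, and the test of the difference between genotypes gave no call. Of the 9 rises none was called higher in wild type and 2 were called lower there, Pcdh11x and Gm16503. In wild type 30 of the 36 homeostatic genes were called lower. The wild-type reference was uneven in tissue makeup too. In wild-type PLX3397 library 1 the mean over the 22 cortical neuron genes was 3.49, against 5.49 and 5.74 in libraries 2 and 3. On vehicle the wild-type means were 5.31, 4.52 and 5.47. That treated library also had the highest choroid plexus mean of the wild-type libraries. The wild-type calls without it are not given here.

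The difference of the drug's effect between genotypes was tested as an interaction, and 2617 genes passed (17.0%). Of these, 1430 had the R6/2 change above the wild-type one and 1187 below. Without wild-type PLX3397 library 1, low in cortical signal, 3532 passed, 1820 above and 1712 below. Across the 14305 genes with a known GC content the drug's change had a Spearman correlation of -0.472 with GC in R6/2 and of 0.517 in wild type, a description across genes, which are not independent replicates. With the GC and length trend removed 573 genes passed, 190 above and 383 below, and with the cortical list mean as a covariate 1212, 853 above and 359 below. The count also fell without wild-type vehicle library 1 (537) or 2 (625), R6/2 vehicle library 1 (1158) or 2 (1668), and R6/2 PLX3397 library 1 (862) or 2 (683), and without R6/2 PLX3397 libraries 1 and 2 limma called 0, with 2599 genes at an unadjusted p under 0.05.

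Among the 160 falls 17 passed the interaction, beside 17.0% of all genes, so the falls did not pass more often than genes at large. Of the 17, 14 were deeper in R6/2. Irf8 fell by 3.56 in R6/2 and changed by -1.28 in wild type, and Il10ra, the receptor for the cytokine IL-10, by 3.15 against 1.42. In the other direction Dock2 and Tgfbr1 fell by 2.12 and 1.06 in R6/2 and by 4.06 and 2.17 in wild type. None of these 4 differences passed with the GC and length trend removed: the interaction was -1.99 for Irf8, -1.36 for Il10ra and 1.5 for Dock2, and for Tgfbr1 it went from 1.12 to 0.0092. All 9 rises passed the interaction, but they were called on the same R6/2 change that enters it, so this is not separate evidence. Net genes Tnr and Vcan fell by 1.80 and 1.86 in wild type and did not pass in R6/2. The 10 genes with the smallest interaction p were Gm19378, Sema6d, Minar1, Ccdc85a, Enah, N4bp2 and Peg3, with the R6/2 change above the wild-type one, and Nat14, Ubald1 and Ecsit, with it below. None of the 10 was called on the drug in R6/2.

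**Figure D5:**
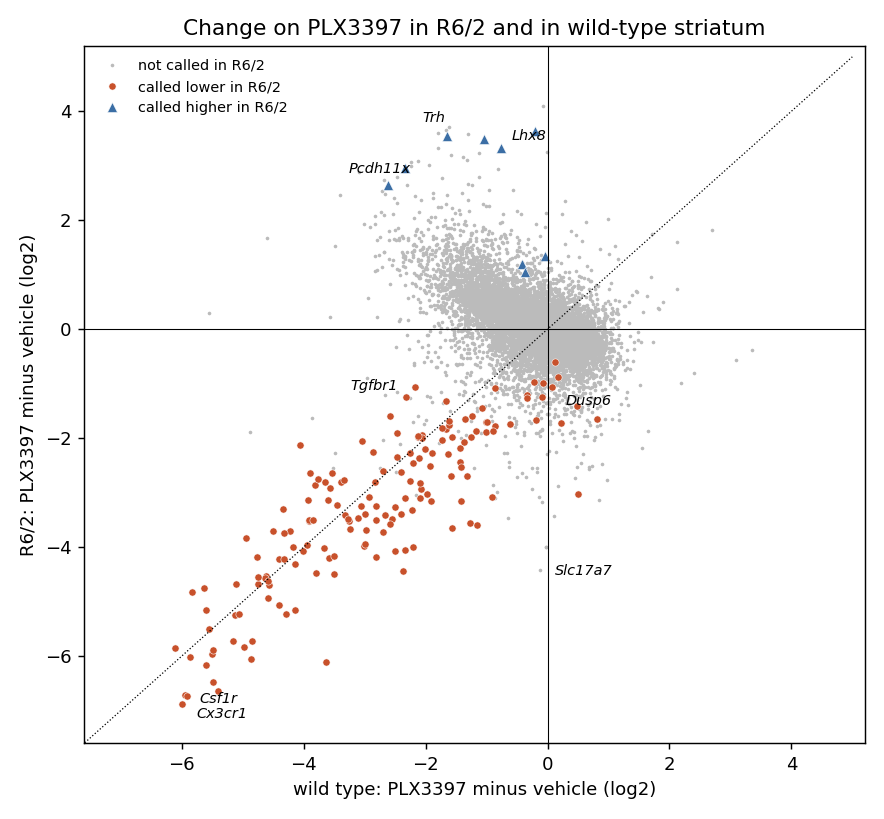
Each point is 1 of 15397 genes, with the change on PLX3397 in wild type (x axis) and in R6/2 (y axis), both as log2 differences of 3 libraries against 3. Orange circles were called lower in R6/2, blue triangles called higher, and grey points not called. The dotted line marks equal change. Cx3cr1 and Csf1r lie at the lower left near that line, at about -6 in wild type and below -6 in R6/2, while Lhx8 and Trh lie above 3 in R6/2 and below 0 in wild type.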

How the data were processed

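RNA-seq libraries of striatum were analysed, 3 in each of 4 groups, from 1 deposited table. The deposited values are log2 CPM (scaled read counts) with a prior of 2 reads, made by the authors, although the table is named RPKM; no gene length enters them. The submitters' processing notes name STAR, featureCounts, edgeR, limma and the mm10 build, and their versions and filters are not given in the sources used here. All values gave whole reads within 0.1 of a read once the prior was removed, 18902120 to 24293208 per R6/2 library, which set the precision of genes with few reads.

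The main test was limma 3.58.1 in R 4.3.3 with a mean trend: 1 fit of 4 group means over all 12 libraries, the contrast R6/2 PLX3397 minus R6/2 vehicle and its interaction with genotype, and Benjamini-Hochberg adjustment over 15397 genes. Its code was tested on simulated data. Percent left is the ratio of mean CPM of recovered reads. Library numbers name samples, and p-values measure the spread between 3 mice a group. RefSeq promoters (GRCm38.p6) matched 11814 genes, and 14305 genes (92.9%) had a GC content and length.

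Genes named are the 12 largest falls and rises (of at least 1 CPM, groups not overlapping, no pseudogenes or predicted genes), the 4 genes at most of smallest p in each of 46 lists, 36 genes set by hand, and the 10 smallest p of the interaction; other genes are said to be chosen after their values were seen. The roles, families and motif spellings were also chosen after the values were seen. The members and lists were chosen with earlier results of these data known. Some results are not reported here.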

Additional observations from a re-analysis of the deposited data

Results flagged for a closer look

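The change on PLX3397 differed between R6/2 and wild type for 2617 genes by the interaction term of limma, and 37 of the genes named above were among them. The values in brackets are the R6/2 change minus the wild-type change on the log2 scale, each with an adjusted p under 0.05. Without R6/2 PLX3397 libraries 1 and 2 none of the 37 passed, and 12 of the 33 with a GC content did once the trend on GC content and length was taken out. The part of tissue makeup and of GC content in them was not tested further.

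All 9 genes called higher in R6/2 differed: Isl1 (1.39), Lhx8 (4.09), Trh (5.19), Gbx1 (4.53), Pcdh11x (5.25), Cacna2d2 (1.62), Gm14204 (1.41), AI606473 (3.84) and Gm16503 (5.30). These 9 were called on the same R6/2 change that enters the interaction, so their pass is not separate evidence. Among genes of microglia and their signals, the R6/2 change lay below the wild-type one for Tmem119 (-1.18), Irf8 (-2.28) and Il10ra (-1.73), and above it for Hpgds (2.23), Tgfbr1 (1.12) and Dock2 (1.94). It lay below for Cst3 (-0.91), Dusp6 (-1.12), Grn (-0.94), Il34 (-1.12) and Irf7 (-1.22), of which Cst3 and Dusp6 were called lower in R6/2 and none of the 5 was called in wild type. The neuronal genes Slc5a7 (3.92) and Gad2 (2.86) differed without a call in R6/2. Net genes Vcan (2.30), Tnr (2.55) and Nptx2 (-2.13) and the oligodendrocyte lineage genes Gpr17 (0.89) and Pdgfra (1.24) also differed without a call in R6/2. The 10 genes of smallest interaction p were Gm19378 (5.85), Sema6d (1.35), Minar1 (4.11), Ccdc85a (1.62), Enah (1.66), N4bp2 (4.10), Peg3 (3.44), Nat14 (-1.25), Ubald1 (-1.30) and Ecsit (-1.08).

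With the GC and length trend removed, the 12 that passed were Lhx8, Trh, Gbx1, Pcdh11x, Cacna2d2, Gad2, Gpr17, Sema6d, Minar1, N4bp2, Peg3 and Ubald1. Among the other 21, the difference shrank by over 1.5 times for Cst3 (to 9.3e-05), Tgfbr1 (0.0092), Grn (-0.29), Enah (0.31), Ecsit (-0.38), Il34 (-0.37), Tmem119 (-0.42), Nat14 (-0.50), Pdgfra (0.68), Irf7 (-0.70), Vcan (0.83), Ccdc85a (0.87) and Tnr (1.45). It stood at 1.55 for Hpgds, -1.99 for Irf8, -0.97 for Dusp6, 1.29 for Isl1, 2.89 for Slc5a7, -1.43 for Nptx2, -1.36 for Il10ra and 1.5 for Dock2, without a call. Gm14204, AI606473, Gm16503 and Gm19378 had no GC content.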

How the results depend on the processing

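Leaving out 1 library at a time gave between 125 and 381 calls on the drug in R6/2, against 169 with all; the 381 came without R6/2 PLX3397 library 3 (98 higher, 283 lower). The count was 58 without R6/2 PLX3397 libraries 1 and 2 together, 98 in the 6 R6/2 libraries alone and 109 with the cortical list mean as a covariate, all of them lower. For the interaction, against 2617, leaving out 1 library gave between 537 and 3532, leaving out R6/2 PLX3397 libraries 1 and 2 gave 0 (limma, 2599 at an unadjusted p under 0.05), the cortical covariate 1212 and taking out the trend on GC content and length 573. The 2 counts stayed within 1.5-fold under median-of-ratios scaling, priors of 0.5 and 5 reads, limma-voom, a filter at 1 CPM, limma without its trend, and, chosen after seeing the data, leaving out both libraries high in choroid plexus genes. The cause of these shifts was not tested; a fit with fewer libraries has fewer degrees of freedom.

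All 160 falls were negative and all 9 rises positive in every alternative that could test them; 51 falls and 0 rises were called in each, and 17 of the 29 homeostatic genes. The cortical covariate is the mean of all 22 cortical genes, Slc17a7 included, so those genes' own values under it are not reported. A fit left with 1 treated library takes its spread from the other groups.

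Replicate numbers are shared between the groups. Deviations from the group mean had correlations from -0.07 to 0.40 over 3 same-numbered R6/2 pairs and from -0.29 to 0.31 over 6 other pairs. The highest, 0.40, was between libraries numbered 1, and the numbers are not treated as pairs. With a replicate block the drug in R6/2 gave 144 calls and the interaction 1432 (941 above, 491 below). An edgeR fit on recovered reads was planned and not run, and limma-voom was run on those reads. No filter was in use that could be dropped. Depth limits the lowest genes: 33 falls rested on 3 reads or fewer in each treated library.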
